A study of Mus musculus with 17 samples.

Results

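The genes described here are 8 products by which alternatively and classically activated macrophages are usually told apart: the scavenger and lectin receptors Msr1, Mrc1 and Cd163, the secreted proteins Retnla and Chil3, the arginine-using enzymes Arg1 and Nos2, and the cytokine Il10. They were chosen by symbol from 19938 genes, with earlier results of these arrays known, because genes of resident fat pad macrophages and genes that are higher in tumours stand side by side among them. Each of the 8 had 1 probe set of its own. Because tumour and normal values entered that choice, levels in tumours and in normal tissue are given for these genes as a description, and calls on them are counted without being read as a test.

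The study set mouse mammary tumours that lack Rb1 and Trp53, or Trp53 alone, against normal mammary tissue, 17 arrays in all, from mice whose strain is given as mixed. Both the retinoblastoma gene Rb1 and the tumour suppressor gene Trp53 were deleted in 9 tumours, called Rb/p53. In 7 of them Cre recombinase was driven by the promoter of mouse mammary tumour virus (MMTV-Cre), which is active mainly in mammary epithelium. The mouse behind replicate 1 of these was nulliparous, that behind replicate 2 was parous, and replicates 3 to 7 are labelled as transplants. In the other 2, also transplants, Cre came from an adenovirus (Ad-CMVcre, called Ad-Cre here). The 3 p53 tumours carried MMTV-Cre and a deletion of p53 alone, and their labels do not mention transplantation. The 5 normal samples were mammary tissue of mice of the Rb/p53 model, whose Cre status is not stated. Ages, the transplant hosts and any pooling are not given in the labels. The tumours are described as independent, and nothing further is said about the animals behind the normal samples.

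Macrophages respond to the interleukins IL-4 and IL-13 through the receptor chains Il4ra and Il13ra1 and the transcription factor Stat6, and then make Arg1, Retnla, Chil3 and Mrc1. Interferon-gamma and microbial products instead induce Nos2, which draws on the same arginine as Arg1. Resident macrophages of fat, the tissue that surrounds the mammary ducts, carry Cd163, Mrc1 and lectins of the Cd209 family, whereas macrophages that arise from blood monocytes in inflamed or growing tissue carry Msr1, Trem2 and monocyte chemokines.

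Levels are log2 values on an arbitrary scale, so a difference of 1 is a doubling, and levels of different genes cannot be compared. The arrays carry no detection call. On each array the 25th percentile of all probe sets was taken, and a level below 6.37, the smallest of these, is described as not shown to be above background. The array of p53 replicate 2 stood apart, with a correlation of 0.888 to 0.915 with the other 16, against 0.929 to 0.993 between those, and p53 differences of the 8 genes are given with and without it. Of the 125 listed genes called between p53 tumours and normal tissue, 96 kept their call without it. The calls named below kept theirs, except those of Adgre1, Csf1r, Gpnmb and Il10ra. The labels of p53 replicate 3 conflict. The Rb/p53 model stands in its title, whose tumour code is of the series used for MMTV-Cre Rb/p53 mice. Its source name, description and tissue fields name p53 deletion, and its tumour model field names only MMTV-Cre. It was kept with the p53 tumours. Rb1 lay between 9.29 and 9.92 in the Rb/p53 tumours, between 9.93 and 11.00 in the p53 tumours and between 10.93 and 11.50 in normal tissue. Trp53 was not analysed here. The tissue is bulk, so fewer cells of a type and less RNA per cell cannot be told apart in anything that follows.

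Msr1, the class A scavenger receptor that takes up modified lipoproteins, was the member with the clearest rise in level from normal tissue to tumours. In the 5 normal samples it read 8.43, 8.50, 8.77, 9.31 and 8.91. The 9 Rb/p53 tumours ran from 10.38 over a median of 11.09 to 11.88, and the 3 p53 tumours read 12.02, 13.16 and 12.54. Every tumour lay above every normal sample, and the p53 tumours lay above every Rb/p53 tumour. The mean of Rb/p53 tumours was 2.44 ± 0.27 (SE) log2 units above that of normal tissue, and that of p53 tumours 3.79 ± 0.36 above it, or 3.49 without p53 replicate 2. The 2 Rb/p53 tumours that were not transplants read 11.84 and 11.88, 3.08 above normal tissue. The order of group means was p53 (12.57 ± 0.58 SD, n = 3), MMTV-Cre Rb/p53 (11.26 ± 0.54, n = 7), Ad-Cre Rb/p53 (11.06 ± 0.97, n = 2) and normal (8.78 ± 0.35, n = 5). Only the neighbours MMTV-Cre and Ad-Cre Rb/p53 overlapped.

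Mrc1, the mannose receptor that clears mannose-ended glycoproteins and is a standard marker of alternative activation, was much the same in normal tissue and Rb/p53 tumours. Normal samples read 11.49, 11.04, 11.29, 11.07 and 11.05. The Rb/p53 tumours ran from 10.21 over 10.99 to 11.76, on both sides of the normal range, with a mean difference of -0.20 ± 0.24. The p53 tumours read 11.89, 13.19 and 12.17, all above the other 14 arrays, with a mean 1.23 ± 0.31 above normal tissue and 0.85 above it without replicate 2. The order of means was p53 (12.42 ± 0.68, n = 3), normal (11.19 ± 0.20, n = 5), Ad-Cre Rb/p53 (11.10 ± 0.93, n = 2) and MMTV-Cre Rb/p53 (10.95 ± 0.40, n = 7), and the last 3 overlapped.

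Cd163, the receptor for haemoglobin bound to haptoglobin, was lower in Rb/p53 tumours. Normal samples read 9.91, 9.33, 9.53, 9.16 and 9.18. The Rb/p53 tumours ran from 6.55 over 7.19 to 8.37, so that no Rb/p53 tumour reached the lowest normal sample, and the mean difference was -2.23 ± 0.44. The p53 tumours were spread widely, at 7.15, 10.72 and 8.40. The p53 replicate 2 array was the highest of all 17 for this gene, and it alone among the tumours lay in or above the normal range. The mean difference of p53 tumours from normal tissue was -0.67 ± 0.57, -1.65 without that array and 0.14 without replicate 1, so its direction depended on single arrays. By mean the order was normal (9.42 ± 0.31, n = 5), p53 (8.75 ± 1.81, n = 3), Ad-Cre Rb/p53 (7.46 ± 1.29, n = 2) and MMTV-Cre Rb/p53 (7.11 ± 0.47, n = 7), each overlapping the next.

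**Figure D1:**
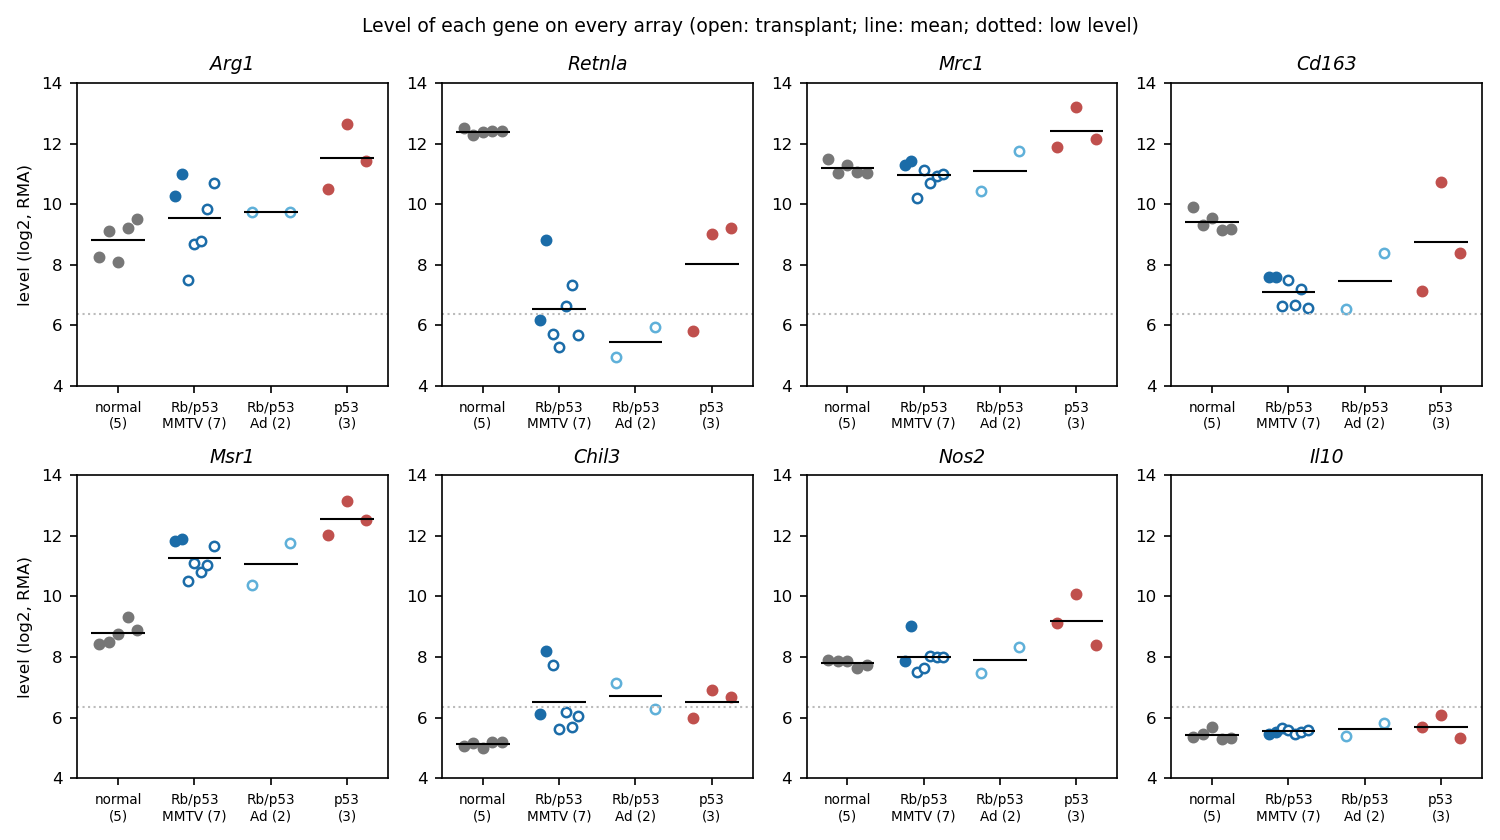
Log2 level (y axis, RMA values) of the 8 genes on each of the 17 arrays by group, with the number of arrays in brackets under each group; open circles are tumours labelled as transplants, filled circles the other samples, black lines group means, and the dotted line the low level of 6.37. Msr1 and Chil3 are higher and Retnla lower in all 12 tumours than in the 5 normal samples, and Cd163 is lower in the Rb/p53 tumours only by groups that do not overlap, since p53 replicate 2 reads 10.72.

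Retnla, the resistin-like secreted protein that IL-4 induces in macrophages and that is also made in fat, was the member with the largest difference. The normal samples read 12.50, 12.27, 12.38, 12.40 and 12.42, within a range narrower than that of any tumour group for this gene. The Rb/p53 tumours ran from 4.97 over 5.95 to 8.81, and the p53 tumours read 5.83, 9.02 and 9.21. All 12 tumours were below all normal samples, and 7 of the 12 were below 6.37 and so not shown to be above background. The mean log2 difference from normal tissue was -6.10 ± 0.59 in the Rb/p53 tumours and -4.38 ± 0.77 in the p53 tumours, or -4.88 without replicate 2. Where tumours had no level shown to be above background, these differences may understate how far the gene lay below normal tissue. Retnla was highest among tumours in p53 replicates 3 and 2 and in MMTV-Cre replicate 2, from the parous mouse, and the groups followed the order normal (12.39 ± 0.08, n = 5), p53 (8.02 ± 1.90, n = 3), MMTV-Cre Rb/p53 (6.53 ± 1.22, n = 7) and Ad-Cre Rb/p53 (5.46 ± 0.69, n = 2). All neighbouring tumour groups overlapped.

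Chil3, the chitinase-like lectin Ym1, shares its dependence on IL-4 and Stat6 with Retnla but read higher in tumours. Normal samples read 5.06, 5.17, 4.99, 5.20 and 5.19, none of them shown to be above background. The Rb/p53 tumours ran from 5.63 over 6.17 to 8.20, and the p53 tumours read 5.99, 6.93 and 6.67. Every tumour lay above every normal sample, but 7 of the 12 tumours were still below 6.37. The levels that stood out were 8.20 in MMTV-Cre replicate 2, 7.74 in MMTV-Cre replicate 3 and 7.15 in Ad-Cre replicate 1. The mean was 1.44 ± 0.37 above normal tissue in Rb/p53 tumours and 1.41 ± 0.48 in p53 tumours, or 1.21 without p53 replicate 2. With normal tissue and 7 tumours not shown to be above background, these differences do not measure the size of the change. The 3 tumour groups (6.72 ± 0.61 for Ad-Cre, 6.53 ± 0.48 for p53 and 6.52 ± 1.02 for MMTV-Cre) overlapped throughout. Its near-identical neighbour Chil4 (Ym2) read 4.08 to 4.41 in normal tissue and 4.36 to 4.95 in tumours, below 6.37 on all 17 arrays. Whether the probes of Chil3 and Chil4 also bind each other's transcripts was not tested.

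The sequences just upstream of these 2 genes are shown because both are known targets of IL-4 and Stat6 and they read in opposite directions in tumours, Chil3 against normal levels not shown to be above background. Of the 8 genes, 4 (Retnla, Chil3, Cd163 and Mrc1) had a promoter window in the RefSeq table used. The 250 bases before the start site are printed 5′ to 3′ on the strand of the gene, build GRCm38.p6, with matches in capitals, for Retnla at chr16:48842359-48842608 (plus strand) and Chil3 at chr3:106167565-106167814 (minus strand).
Retnla: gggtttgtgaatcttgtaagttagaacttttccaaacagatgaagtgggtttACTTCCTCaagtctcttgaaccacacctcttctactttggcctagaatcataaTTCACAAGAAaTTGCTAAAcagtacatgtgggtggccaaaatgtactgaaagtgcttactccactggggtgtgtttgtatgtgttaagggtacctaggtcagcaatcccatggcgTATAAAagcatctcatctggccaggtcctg
Chil3: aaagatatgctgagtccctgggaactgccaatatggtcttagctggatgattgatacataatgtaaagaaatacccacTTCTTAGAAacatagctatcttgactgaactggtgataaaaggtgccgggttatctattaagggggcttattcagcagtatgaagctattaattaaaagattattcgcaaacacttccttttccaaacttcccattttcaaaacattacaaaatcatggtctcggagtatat
The windows were searched on both strands for 7 motifs: TTCNNNNGAA (the Stat6 form), TTCNNNGAA (the general Stat form), TTGCNNAA (C/EBP), GAGGAAGT (PU.1), GGGANTTTCC (NF-kappaB), the start site box TATAAA and the AP-1 site. The AP-1 site was searched as TGANTCA. In Retnla the Stat6 form matched as TTCACAAGAA from 145 to 136 bases before the start, next to a C/EBP match, TTGCTAAA, from 134 to 127 bases before it. A PU.1 match lay on the other strand at 198 to 191 bases, printed as ACTTCCTC, and TATAAA lay at 30 to 25 bases. In Chil3 the general Stat form matched as TTCTTAGAA at 172 to 164 bases, and it was the only match. No matches overlapped one another. Over 32851 promoter windows of the same length, 5.85% held the Stat6 form, 7.02% the general Stat form, 9.56% C/EBP, 2.44% PU.1, 6.75% AP-1, 12.4% TATAAA and 0.356% NF-kappaB. The windows of Cd163 and Mrc1 held none of the 7 motifs. A match is a description of the letters and not evidence of binding.

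Arg1, which splits arginine into ornithine and urea and is a leading product of IL-4 stimulated macrophages, varied widely between Rb/p53 tumours. It was higher in the p53 tumours than in normal tissue. Normal samples read 8.25, 9.10, 8.08, 9.23 and 9.52. The Rb/p53 tumours ran from 7.49 over 9.74 to 10.99, from below the normal range to above it, with a mean difference of 0.75 ± 0.50. The p53 tumours read 10.50, 12.63 and 11.44, all above the normal samples, with a mean difference of 2.69 ± 0.66, or 2.13 without replicate 2. The 2 Rb/p53 tumours that were not transplants read 10.26 and 10.99, and their mean was 1.79 above normal tissue. Arg1 was highest by mean in p53 tumours (11.52 ± 1.07, n = 3), then in Ad-Cre Rb/p53 tumours (9.74 ± 0.01, n = 2), in MMTV-Cre Rb/p53 tumours (9.54 ± 1.26, n = 7) and in normal tissue (8.84 ± 0.63, n = 5). Of these neighbours, both Rb/p53 groups overlapped, and MMTV-Cre Rb/p53 overlapped with normal tissue.

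Nos2, the inducible nitric oxide synthase and the usual counterpart of Arg1, was flat in most Rb/p53 tumours. Normal samples read 7.92, 7.87, 7.88, 7.64 and 7.75, and the Rb/p53 tumours ran from 7.48 to 9.03, with a mean difference of 0.18 ± 0.25. The p53 tumours read 9.13, 10.08 and 8.39, above every normal sample, with a mean difference of 1.39 ± 0.33, or 0.95 without replicate 2. MMTV-Cre replicate 2 alone among the Rb/p53 tumours read above 9. The means were 9.20 ± 0.85 in p53, 8.02 ± 0.49 in MMTV-Cre Rb/p53, 7.91 ± 0.61 in Ad-Cre Rb/p53 and 7.81 ± 0.12 in normal tissue, and each overlapped the next. Nos2 and Arg1 were thus both highest in the p53 tumours and not set against each other. Il10, the cytokine that restrains macrophage activation, was below 6.37 on all 17 arrays. It read 5.37, 5.47, 5.70, 5.28 and 5.31 in normal tissue, 5.40 to 5.83 in the Rb/p53 tumours and 5.68, 6.09 and 5.34 in the p53 tumours, so no difference of Il10 can be read from these arrays.

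Counted over the 8 genes, 4 passed an adjusted p of 0.05 between Rb/p53 tumours and normal tissue (Msr1 and Chil3 higher, Retnla and Cd163 lower), where 27.6% of all genes did, in limma over all genes. Between p53 tumours and normal tissue 6 did (Arg1, Mrc1, Msr1, Chil3 and Nos2 higher, Retnla lower), where 20.4% of all genes did. Without p53 replicate 2 there were 5, since Mrc1 and Chil3 no longer passed and Cd163, lower, did. Chil3 passed in 1 of the 8 fits that left out 1 array, and did not pass with cyclic loess. In the fits on all arrays the genes that passed were also those whose groups did not overlap, a property of 16.2% and 23.4% of all genes. Both comparisons share the normal arrays, and the choice of these genes used them, so nothing is read from these counts. Against all 12 tumours together, the normal samples did not overlap for Msr1 and Chil3, higher in tumours as were 2.76% of all genes, nor for Retnla, lower as were 6.29%.

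Genes that mark macrophages in general differed between the groups as well. In this and the following lists, genes said to have risen or fallen passed an adjusted p of 0.05. The lists too were chosen with earlier results of these arrays known. Their counts and adjusted p values against normal tissue are therefore given as a description. Over all 19938 genes 2828 rose and 2675 fell in Rb/p53 tumours, and 1663 rose and 2410 fell in p53 tumours. The pan-macrophage list, 19 measured genes that most macrophages express, had a mean level of 10.64 ± 0.20 (SD, n = 5) in normal tissue, 11.33 ± 0.39 (n = 9) in Rb/p53 tumours and 11.26 to 12.68 in the 3 p53 tumours. Of these genes 7 rose and 0 fell in Rb/p53 tumours, with a median difference of 0.59 against 0.03 over all genes. Among those that rose were Fcgr1, an immunoglobulin receptor, by 1.82 ± 0.34 (adjusted p = 0.000641) and the protease Ctss by 1.58 ± 0.30 (adjusted p = 0.000744), while Adgre1 (F4/80) differed by 0.46 ± 0.20 (adjusted p = 0.105) and the growth factor receptor Csf1r by 0.28 ± 0.31 (adjusted p = 0.596). Without MMTV-Cre replicate 4, 11 rose, and with only the 2 tumours that were not transplants 3 did. In p53 tumours 16 rose and 0 fell, with a median of 1.22 against 0.09, but 9 rose without p53 replicate 2 or without normal replicate 2, and 10 without p53 replicate 3. Csf1r at 1.19 ± 0.41 (adjusted p = 0.0484) was lost in 6 of the 8 fits that left out 1 array, and Adgre1 at 0.82 ± 0.26 (adjusted p = 0.0367) in 5 of the 8.

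The levels were also set against the mean of that list on the same array. Only the change of such a value between groups can be read, and not whether a gene lay above or below the list. Relative to the list mean Msr1 averaged -1.86 in normal tissue, -0.11 in Rb/p53 tumours and 0.57 in p53 tumours, and all 12 tumours (-0.94 to 0.86) lay above all normal samples (-2.44 to -1.32). Mrc1 averaged 0.54 in normal tissue (0.43 to 0.64) and -0.35 in Rb/p53 tumours (-1.23 to 0.47), with the p53 tumours at 0.11 to 0.64. Cd163 lay at -1.47 to -0.96 in normal tissue and at -5.44 to -1.97 in the tumours, so that on this scale p53 replicate 2 fell below the normal samples too. Retnla lay at 1.57 to 1.90 in normal tissue and at -6.32 to -2.21 in tumours, where most of its levels were below 6.37. Arg1 relative to the list overlapped between Rb/p53 tumours (-3.94 to -0.03) and normal tissue (-2.72 to -0.99), and the 3 p53 tumours lay at -0.76 to -0.05, above the normal samples. Nos2 overlapped between normal tissue (-2.99 to -2.53) and both kinds of tumour.

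**Figure D2:**
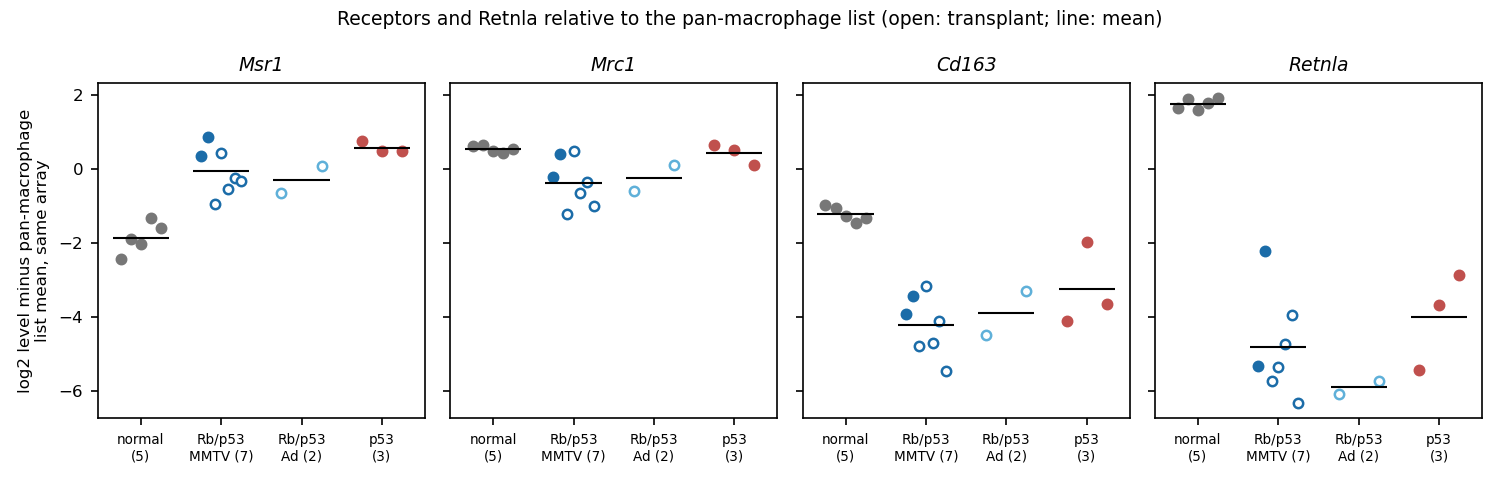
Log2 level of Msr1, Mrc1, Cd163 and Retnla minus the mean of the 19 pan-macrophage genes on the same array (y axis), for the 17 arrays by group; open circles are transplants, filled circles other samples, and black lines group means. Relative to that list all 12 tumours lie above the normal samples for Msr1 and below them for Cd163 and Retnla, while Mrc1 overlaps.

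Genes listed for resident fat pad macrophages shared the direction of Cd163 and Retnla in Rb/p53 tumours. Because earlier results were known when both were chosen, the shared direction is not independent evidence. Of 23 measured genes, 7 of which are also in another of the lists used here, 0 rose and 17 fell, with a median difference of -1.72. The lectins Cd209f, Cd209d and Cd209b, found on tissue macrophages, differed by -4.80 ± 0.71 (adjusted p = 8.28e-05), -4.61 ± 0.53 (adjusted p = 5.44e-06) and -3.28 ± 0.15 (adjusted p = 3.37e-11). Ccl24, an eosinophil chemokine that IL-4 induces, fell by 3.07 ± 0.17 (adjusted p = 9.05e-10). Lyve1, a hyaluronan receptor of resident macrophages and lymphatic vessels, fell by 2.02 ± 0.59 (adjusted p = 0.0172), and the folate receptor Folr2 fell by 1.30 ± 0.32 (adjusted p = 0.00598). Leaving out 1 array at a time left 15 to 17 genes lower. With only the 2 tumours that were not transplants 10 fell and 1 rose.

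In p53 tumours 9 of the 23 fell and 2 rose, with a median of -0.41. Without p53 replicate 2 it was 10 and 1 with a median of -0.86, and without p53 replicate 1 it was 7 and 3 with a median of -0.13. Cd209f fell by 4.25 ± 0.93 (adjusted p = 0.00366), Cd209d fell by 4.20 ± 0.70 (adjusted p = 0.00037) and Cd209b fell by 3.01 ± 0.19 (adjusted p = 8.02e-09). Igf1, a growth factor that fat tissue and resident macrophages both make, fell by 2.69 ± 0.32 (adjusted p = 1.19e-05). Stab1, an endocytic receptor of resident macrophages and sinusoidal vessels, rose by 1.38 ± 0.25 (adjusted p = 0.000805) in p53 tumours and differed by 0.43 ± 0.19 (adjusted p = 0.112) in Rb/p53 tumours. Lyve1 at -0.19 ± 0.78 (adjusted p = 0.876) and Folr2 at -0.13 ± 0.42 (adjusted p = 0.846) did not pass in p53 tumours. The resident list therefore did not move as one in p53 tumours.

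Genes listed for tumour and monocyte derived macrophages shared the direction of Msr1. Both were chosen with earlier results known, so this shared direction is not independent evidence either. Of 22 measured genes 14 rose and 1 fell in Rb/p53 tumours, with a median of 1.35, and 12 rose and 1 fell in p53 tumours, with a median of 1.36, or 13 and 0 without p53 replicate 2. The lectin receptors Clec4e (Mincle) and Clec4n (Dectin-2) rose by 2.53 ± 0.57 (adjusted p = 0.00312) and 2.46 ± 0.35 (adjusted p = 4.99e-05) in Rb/p53 tumours and by 3.94 ± 0.75 (adjusted p = 0.00121) and 4.04 ± 0.46 (adjusted p = 8.16e-06) in p53 tumours. Ccl12 and Ccl7, chemokines that draw monocytes, rose by 2.52 ± 0.41 (adjusted p = 0.000192) and 2.38 ± 0.37 (adjusted p = 0.000139) in Rb/p53 tumours. Trem2, a lipid-sensing receptor, rose by 1.36 ± 0.26 (adjusted p = 0.000869) in Rb/p53 and 1.63 ± 0.34 (adjusted p = 0.00267) in p53 tumours, and the fractalkine receptor Cx3cr1 by 1.89 ± 0.34 (adjusted p = 0.000509) and 1.77 ± 0.45 (adjusted p = 0.0095). Plin2, the coat protein of lipid droplets in fat cells and foamy macrophages, was the 1 gene that fell in Rb/p53 tumours, by 0.71 ± 0.18 (adjusted p = 0.00736). Gpnmb was the 1 that fell in p53 tumours, by 1.76 ± 0.54 (adjusted p = 0.03), a call lost in 4 of 8 fits that left out 1 array.

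**Figure D3:**
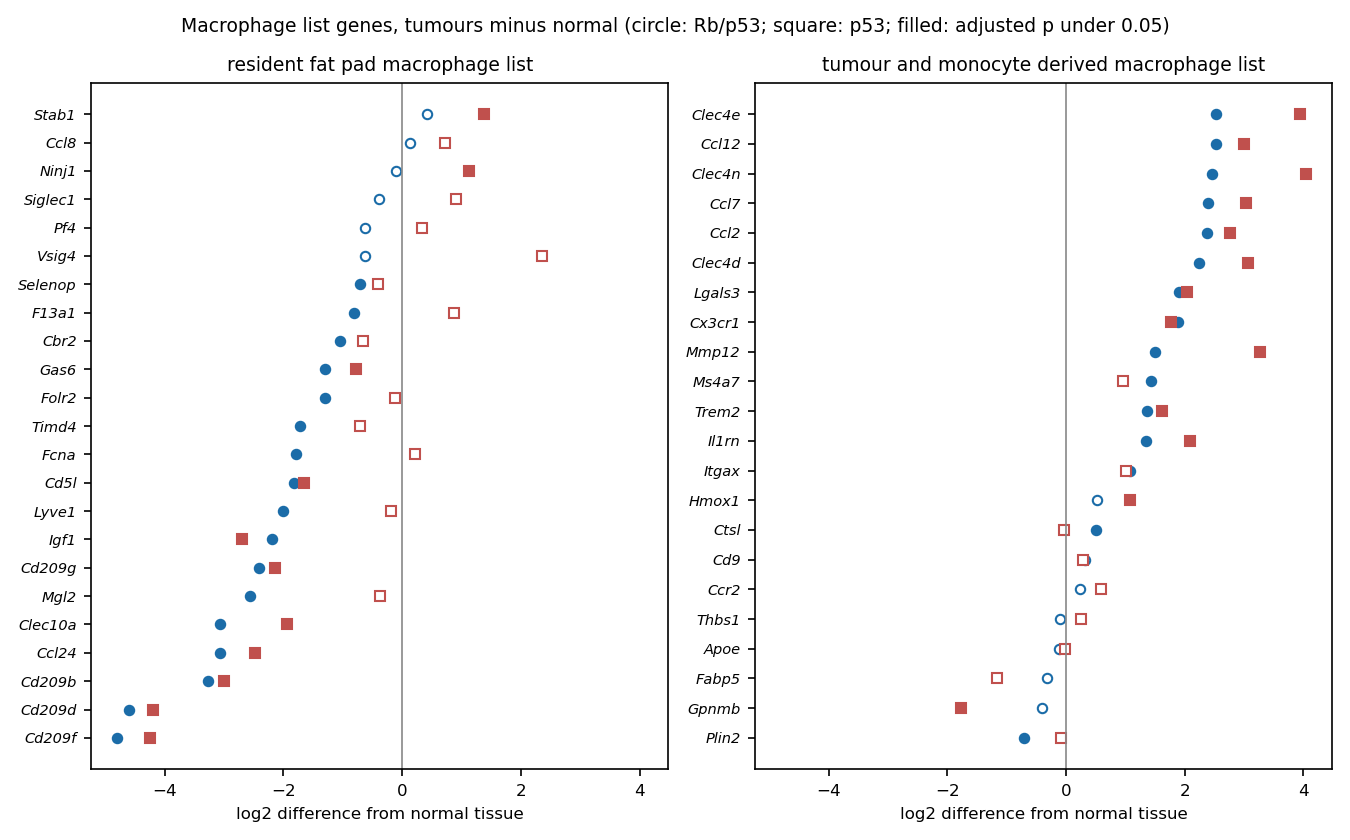
Log2 difference from normal tissue (x axis) of the 23 resident fat pad macrophage genes (left) and the 22 tumour and monocyte derived macrophage genes (right); circles are Rb/p53 tumours, squares p53 tumours, and filled symbols passed an adjusted p of 0.05 in limma. In Rb/p53 tumours 17 of the left list fell and 14 of the right list rose, and in p53 tumours 9 fell and 12 rose.

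Other scavenger receptors did not follow Msr1 as a family. Of 22 measured genes outside the 8, 5 rose and 4 fell in Rb/p53 tumours, with a median of -0.01, and 4 rose and 5 fell in p53 tumours, with a median of 0.23. Without p53 replicate 3 the 4 became 7, and with only the 2 Rb/p53 tumours that were not transplants 1 rose and 3 fell. The collagen receptor Mrc2, a relative of Mrc1, rose by 1.57 ± 0.31 (adjusted p = 0.00103) in Rb/p53 tumours, and Cxcl16, which binds oxidised lipoprotein, rose by 1.45 ± 0.26 (adjusted p = 0.000467). Cd68, a lysosomal protein of macrophages, rose by 0.85 ± 0.22 (adjusted p = 0.00761) in Rb/p53 and 1.22 ± 0.29 (adjusted p = 0.00592) in p53 tumours. Cd36, the fatty acid transporter of fat cells, vessels and macrophages, fell by 4.33 ± 0.60 (adjusted p = 4.01e-05) and fell by 3.97 ± 0.78 (adjusted p = 0.00165). Cd5l, a secreted product of tissue macrophages, fell by 1.82 ± 0.20 (adjusted p = 2.38e-06) and 1.65 ± 0.26 (adjusted p = 0.000205). Marco, another class A receptor, differed by -0.08 ± 0.10 (adjusted p = 0.633) in Rb/p53 and by 0.30 ± 0.13 (adjusted p = 0.111) in p53 tumours. It read 6.65 to 6.85 in normal tissue and 6.44 to 7.47 in tumours. The 25th percentiles of the arrays ran from 6.37 to 6.80, so levels this low limit what its differences can show.

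Of 30 measured genes of the IL-4 and IL-13 pathway outside the 8, 4 rose and 10 fell in Rb/p53 tumours, with a median of -0.09, and 3 rose and 4 fell in p53 tumours, with a median of 0.16, or 4 and 5 without p53 replicate 2. The share that rose in Rb/p53 tumours, and both shares in p53 tumours, were near those over all genes. The receptor chains Il13ra1 and Il4ra rose by 0.94 ± 0.14 (adjusted p = 7.21e-05) and 0.70 ± 0.17 (adjusted p = 0.0041) in Rb/p53 tumours, and by 0.75 ± 0.18 (adjusted p = 0.00729) and 1.31 ± 0.22 (adjusted p = 0.000349) in p53 tumours. Stat6 differed by -0.11 ± 0.13 (adjusted p = 0.632) and 0.11 ± 0.17 (adjusted p = 0.68). Pparg, a nuclear receptor needed for fat cells and for alternative activation, fell by 3.96 ± 0.14 (adjusted p = 2.9e-12) and fell by 4.33 ± 0.19 (adjusted p = 7.03e-11). The lectin Clec10a fell by 3.07 ± 0.39 (adjusted p = 1.58e-05) and by 1.94 ± 0.51 (adjusted p = 0.0126), the latter a call lost without p53 replicate 1 (adjusted p = 0.0609). The eosinophil chemokine Ccl11 fell by 2.82 ± 0.35 (adjusted p = 1.39e-05) in Rb/p53 tumours.

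Fat cell genes, like Retnla, were lower in both kinds of tumour than in normal tissue. All 14 measured adipocyte genes fell in both kinds of tumour, with medians of -4.68 and -4.72, and the list mean was 12.09 to 12.71 in normal tissue and 7.67 to 8.48 in the 12 tumours. Adipoq, the gene of the fat cell hormone adiponectin, fell by 6.18 ± 0.37 (adjusted p = 1.66e-09) in Rb/p53 tumours. Retn, the resistin gene of mouse fat cells and a relative of Retnla, read 13.23 to 13.52 in normal tissue and 7.38 to 9.66 in tumours and differed by -5.39 ± 0.32 (adjusted p = 1.66e-09) and -5.32 ± 0.42 (adjusted p = 1.29e-07). The part of fat cell content in the difference of Retnla was not tested. Retnlg, the family member made by neutrophils, differed by 1.08 ± 0.64 (adjusted p = 0.248) and 1.68 ± 0.84 (adjusted p = 0.163), and it read 11.88 in p53 replicate 2 against 6.43 to 9.06 in the other tumours. Chil1, a chitinase-like protein related to Chil3, fell by 2.85 ± 0.49 (adjusted p = 0.000354) and fell by 2.68 ± 0.64 (adjusted p = 0.00703). Of the 11 measured resistin-like and chitinase-like genes outside the 8, 1 rose and 2 fell in Rb/p53 tumours and 0 rose and 2 fell in p53 tumours; the 1 that rose, Ctbs, was lost in 3 of 14 fits that left out 1 array.

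Around Arg1 and Nos2, 6 of 18 measured genes of arginine and polyamine metabolism rose and 3 fell in Rb/p53 tumours, with a median of 0.26. Ddah1, which clears methylated arginines that block nitric oxide synthases, rose by 1.97 ± 0.42 (adjusted p = 0.00201). Odc1, the rate-limiting enzyme of polyamine synthesis, rose by 1.28 ± 0.39 (adjusted p = 0.0199), and this call was lost without normal replicate 1 or 4. The arginine transporter Slc7a1 rose by 0.78 ± 0.18 (adjusted p = 0.00394), whereas Slc7a2, the transporter used by activated macrophages, differed by 0.07 ± 0.45 (adjusted p = 0.939). Arg2, the mitochondrial arginase, fell by 1.56 ± 0.40 (adjusted p = 0.00811), and the synthases Nos3 of vessels and Nos1 of nerves fell by 0.86 ± 0.11 (adjusted p = 1.25e-05) and 0.70 ± 0.11 (adjusted p = 0.000146). Without normal replicate 4, 3 genes of this list rose. In p53 tumours 2 rose and 3 fell, and without p53 replicate 2 it was 4 and 3.

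Of 28 measured genes of classical activation other than Nos2, 9 rose and 1 fell in Rb/p53 tumours, with a median of 0.37. In p53 tumours 13 rose and 0 fell, with a median of 0.78, and 8 rose without p53 replicate 2. Il1b, the gene of interleukin-1 beta, rose by 2.71 ± 0.54 (adjusted p = 0.00128) and 3.52 ± 0.71 (adjusted p = 0.00202). Ptgs2, the inducible cyclooxygenase, rose by 3.84 ± 0.46 (adjusted p = 8.85e-06) and 2.95 ± 0.61 (adjusted p = 0.00227). Cxcl9, a chemokine of the interferon-gamma response, fell by 1.75 ± 0.41 (adjusted p = 0.00386) in Rb/p53 tumours. Of 17 measured IL-10 pathway genes 6 rose and 0 fell in each kind of tumour, with medians of 0.36 and 0.51, and 5 rose in p53 tumours without p53 replicate 2. Socs3, which Stat3 induces, rose by 1.41 ± 0.24 (adjusted p = 0.000272) and 1.52 ± 0.31 (adjusted p = 0.00224), while Stat3 differed by 0.11 ± 0.11 (adjusted p = 0.53) and 0.13 ± 0.15 (adjusted p = 0.554). The receptor chain Il10ra differed by 0.75 ± 0.31 (adjusted p = 0.0803) in Rb/p53 tumours and rose by 1.51 ± 0.40 (adjusted p = 0.0133) in p53 tumours, a call lost without p53 replicate 2 (adjusted p = 0.0773), and Il10rb differed by 0.24 ± 0.22 (adjusted p = 0.493) and 0.54 ± 0.28 (adjusted p = 0.176).

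Other cells that make some of the 8 products were followed by their own lists. Of 14 neutrophil genes 6 rose and 1 fell in Rb/p53 tumours, and 4 rose and 0 fell in p53 tumours, or 2 and 1 without p53 replicate 2; without replicates 1 or 3, 7 or 8 rose. The neutrophil list mean was 7.59 ± 0.16 (SD, n = 5) in normal tissue and 7.44 to 9.76 in tumours. Of 7 eosinophil genes none passed in Rb/p53 tumours and 1 rose in p53 tumours, or 0 without p53 replicate 2. Their list mean was 6.96 in normal tissue, 6.75 in Rb/p53 tumours and 7.18 in p53 tumours. The 25th percentiles of the arrays, 6.37 to 6.80, were close to this, so the few calls say little about eosinophils. Of 9 mast cell genes 6 fell in each kind of tumour, the latter 4 without p53 replicate 2, and of 10 dendritic cell genes 7 fell in Rb/p53 and 2 in p53 tumours. Epithelial genes fell in 11 of 13 and 10 of 13 cases, and fibroblast genes in 5 of 11 and 3 of 11. Of lymphocyte and vessel genes, those that fell were 3 of 11 and 1 of 11 for T and NK cells, 4 of 8 and 1 of 8 for B and plasma cells (0 without p53 replicate 2), 2 of 6 and 1 of 6 for lymphatic vessels, and 3 of 10 and 6 of 10 for blood vessels, the last being 3 without p53 replicate 2. The part of these cells in the levels of the 8 genes was not tested.

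Between the tumour genotypes, 7 of the 8 genes, among them Il10 with no level shown to be above background, had a lower mean in Rb/p53 than in p53 tumours, but 0 of 8 passed an adjusted p of 0.05 in limma, where 0.00502% of all genes did. At an unadjusted p under 0.05, 5 of 8 were lower (Arg1, Mrc1, Cd163, Msr1 and Nos2), where 20.6% of all genes passed and 10% were lower. The groups did not overlap for Mrc1 and Msr1, as for 3.14% of all genes. The differences were -1.43 ± 0.32 for Mrc1 (adjusted p = 0.109), -1.35 ± 0.35 for Msr1 (adjusted p = 0.135) and -1.21 ± 0.35 for Nos2 (adjusted p = 0.153). Arg1 differed by -1.94 ± 0.65 (adjusted p = 0.175), Cd163 by -1.57 ± 0.59 (adjusted p = 0.197) and Retnla by -1.73 ± 0.81 (adjusted p = 0.244). Chil3 differed by 0.03 ± 0.51 (adjusted p = 0.972). Of the 19 pan-macrophage genes 0 had a higher mean in Rb/p53 tumours and 0 passed. Their median was -0.61, against -0.03 over all genes. Of the 23 resident fat pad macrophage genes 1 had a higher mean, with a median of -0.95. After subtracting the mean difference of the pan-macrophage list, -0.67, Mrc1 differed by -0.76, Msr1 by -0.68 and Nos2 by -0.54. Arg1 then differed by -1.27, Cd163 by -0.90, Retnla by -1.06, Chil3 by 0.70 and Il10 by 0.53. For Chil3 and Retnla 7 of the 12 tumour levels, and for Il10 all of them, were below 6.37, so the sizes of their differences between tumours, here and in what follows, cannot be relied on.

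These differences leaned on individual p53 arrays. Without p53 replicate 2, Mrc1 differed by -1.04 (adjusted p = 0.423), Msr1 by -1.06 (adjusted p = 0.521), Nos2 by -0.77 (adjusted p = 0.592), Arg1 by -1.39 (adjusted p = 0.662), Retnla by -1.23 (adjusted p = 0.79) and Cd163 by -0.59 (adjusted p = 0.794). Without p53 replicate 3, the array with conflicting labels, 2 of 8 passed, Mrc1 at -1.56 (adjusted p = 0.0432) and Nos2 at -1.61 (adjusted p = 0.0302), and 1358 of all genes did. With that array moved to the Rb/p53 tumours Nos2 passed at -1.57 (adjusted p = 0.0246). With the spread taken from all 17 arrays Mrc1 (adjusted p = 0.0266) and Msr1 (adjusted p = 0.0453) passed. Of the Rb/p53 tumours 7 were transplants, and transplantation is not mentioned for p53 tumours, so genotype and transplantation cannot be told apart here. The 2 Rb/p53 tumours that were not transplants differed from p53 tumours by -0.71 for Msr1, -1.07 for Mrc1, -0.76 for Nos2, -0.90 for Arg1, -1.16 for Cd163 and -0.52 for Retnla, with adjusted p from 0.823 to 0.886 over the 8 genes.

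**Figure D4:**
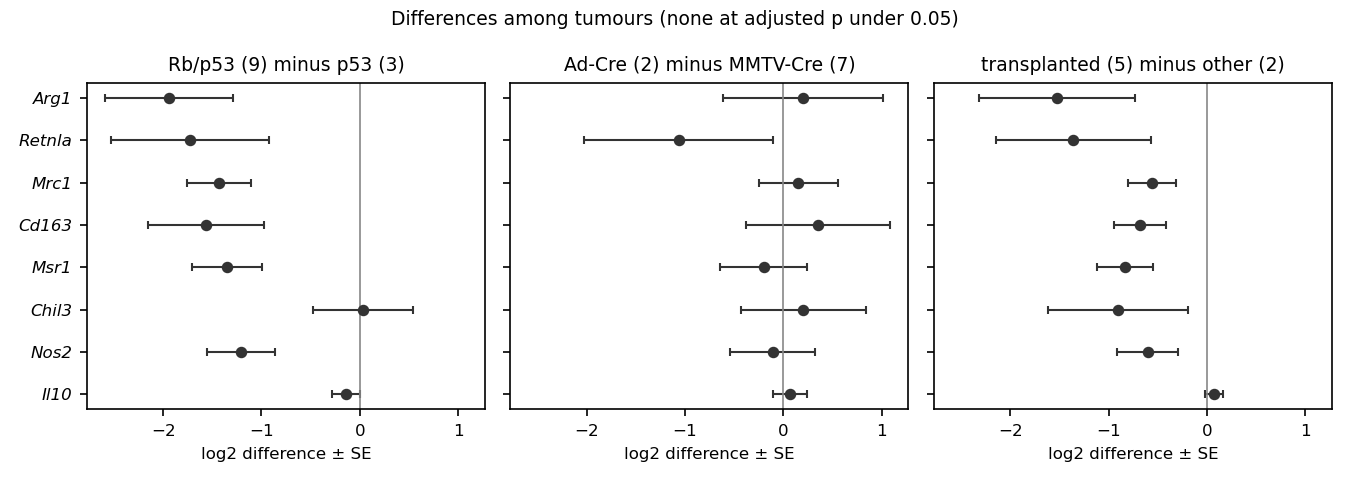
Log2 difference with its standard error (x axis) of the 8 genes between Rb/p53 and p53 tumours, between Ad-Cre and MMTV-Cre Rb/p53 tumours, and between transplanted and other MMTV-Cre Rb/p53 tumours; numbers of arrays stand in the panel titles. No difference passed an adjusted p of 0.05, and Arg1 at -1.94 is the largest of the left panel.

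Within the Rb/p53 tumours, no gene of the 8 was called between the routes of Cre. Between Ad-Cre and MMTV-Cre tumours 0 of 8 passed, where 0.00502% of all genes did, and 0 of 8 had an unadjusted p under 0.05, where 2.07% of all genes did. The groups did not overlap for 0 of 8, against 5.03% of all genes. The adjusted p was 1 for each of the 8 genes after rounding. Retnla differed by -1.06 ± 0.96, with both Ad-Cre values below 6.37.

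Between the 5 transplanted and the 2 other MMTV-Cre tumours 0 of 8 passed, where 0.0251% of all genes did. At an unadjusted p under 0.05, 2 of 8 did (Cd163 and Msr1, both lower in transplants), where 7.92% of all genes did and 4.06% were lower. The groups did not overlap for Mrc1, Cd163 and Msr1, all lower in transplants, as for 14.3% of all genes in either direction and 5.46% lower. Msr1 read 10.50, 11.09, 10.82, 11.04 and 11.68 in the transplants and 11.84 and 11.88 in the other tumours, a difference of -0.83 ± 0.28 (adjusted p = 0.605). Cd163 read 6.65, 7.50, 6.67, 7.19 and 6.56 against 7.60 and 7.59, a difference of -0.68 ± 0.27 (adjusted p = 0.624), and Mrc1 differed by -0.56 ± 0.24 (adjusted p = 0.628). Arg1 differed by -1.52 ± 0.79 (adjusted p = 0.648), Retnla by -1.36 ± 0.79 (adjusted p = 0.673), Chil3 by -0.90 ± 0.72 (adjusted p = 0.738) and Nos2 by -0.60 ± 0.31 (adjusted p = 0.648). The differences of Chil3, Retnla and Nos2 rested on the tumour of the parous mouse, MMTV-Cre replicate 2. Without it they were 0.13 for Chil3, -0.051 for Retnla and -0.016 for Nos2. Without MMTV-Cre replicate 1, the other tumour that was not a transplant, they were -1.94, -2.67 and -1.18. The pan-macrophage list mean was 11.35 ± 0.48 in the transplants and 11.26 ± 0.34 in the other 2 tumours.

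Across the 12 tumours the 3 receptors varied together, as a description over arrays in which the pan-macrophage level varied too. Both genotypes were pooled, and their levels of Mrc1 and Msr1 did not overlap, so the correlations include the difference between genotypes. Correlations within a genotype were not calculated. Pearson's r was 0.95 between Msr1 and Mrc1 (rho 0.97, and r 0.93 without p53 replicate 2), 0.91 between Mrc1 and Cd163 (rho 0.83, and 0.81 without that array) and 0.82 between Msr1 and Cd163 (rho 0.78, and 0.71 without it). Without the 2 tumours farthest from the median level of Cd163 the last was 0.59. It was 0.88 between Msr1 and Arg1 (rho 0.85, and 0.81 without it). Nos2 followed Mrc1 with r 0.87 (rho 0.83, and 0.74 without it). Retnla, with 7 of 12 levels below 6.37, had r of 0.65 to 0.69 with the receptors, and 0.50 to 0.57 without that array. Chil3 had r of -0.06 to 0.08 with them. With the pan-macrophage list mean r was 0.70 for Msr1, 0.65 for Mrc1 and 0.67 for Cd163, and 0.49, 0.32 and 0.23 without p53 replicate 2.

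With predicted genes, Rik clones, small RNAs and receptor or immunoglobulin segments left out, the genes with the most similar pattern over the 12 tumours differed by member. For Mrc1 they were Fcna, the gene of ficolin A, a lectin made by macrophages (r 0.97, and 0.96 without p53 replicate 2), Msr1 (0.95) and the adaptor gene Dok2 (0.95). Msr1 was nearest to the inhibitory receptor gene Lilrb4a (0.96, and 0.93 without that array) and to its relative Lilr4b (0.95), with Mrc1 between them. For Arg1 they were Lilr4b (0.93), Gdpd3 (0.92) and the chemokine gene Ccl6 (0.92), and for Nos2 they were Osm, a cytokine gene (0.93), P2ry2 (0.93) and Cox7a2l (0.93). Cd163 was nearest to Slc36a1 (0.96, and 0.86 without that array), Fcna (0.95) and Slc16a14 (0.95). Several of these ranks rested on p53 replicate 2. Without it Osm ranked 5, P2ry2 38 and Cox7a2l 50 for Nos2, and Slc36a1 ranked 12, Fcna 16 and Slc16a14 52 for Cd163. For Msr1 the same genes stayed at ranks 1 to 3, and for Mrc1 Fcna stayed at rank 1. For Retnla they were Tex11 (0.90), the lactoferrin gene Ltf (0.89) and Efcab2 (0.88). Chil3 was nearest to Nexmif (0.86), Gabra4 (0.85) and Prdm9 (0.83), and Il10 to Gpank1 (0.94), Tnni3 (0.94) and Nrg2 (0.91), values that for Retnla, Chil3 and Il10 rest on levels mostly not shown to be above background. Without the 2 tumours farthest from the median level of Chil3, r with Prdm9 was 0.40 and with Nexmif 0.55.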

How the data were processed

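RNA was hybridised to Affymetrix Mouse Gene 1.0 ST arrays, 1 per sample, so precision is limited by how many arrays a group holds. The deposited values are log2 levels of 35556 probe sets, which the authors made with RMA (which corrects background, normalises between arrays and summarises probes) in Partek 5.6, per the submitters' processing notes; further settings and the build: not given in the sources used here. A single symbol was attached to 21789 of these, several to 1621 and none here to 12146. The probe set of highest mean stood for a symbol (1851 dropped), which left 19938 genes.

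Genes were tested with limma 3.58.1 (lmFit, eBayes) in R 4.3.3, two-sided, with Benjamini-Hochberg adjustment over all 19938 genes and a threshold of 0.05, a step tested on simulated data. Tumours were compared with normal tissue on all 17 arrays as 3 groups, genotypes on the 12 tumour arrays, Ad-Cre with MMTV-Cre on those 12 as 3 groups, and transplants with other tumours on the 7 MMTV-Cre Rb/p53 arrays. Differences are log2 with the SE of the fit.

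The 8 genes and the 20 lists were chosen with earlier results of these data known, so neither is independent evidence. List counts leave out the 8 genes; list genes without a probe set of their own were not analysed here. Named were the 8 genes, in each list up to 4 of the largest rises and falls, a fixed set (Arg2, Slc7a2, Il4ra, Il13ra1, Stat6, Pparg, Il10ra, Il10rb, Stat3, Chil1, Chil4, Retn, Retnlg, Marco, Stab1, Lyve1, Folr2, Adgre1, Csf1r, Cd68, Cx3cr1, Trem2) and the 3 genes most correlated with each member over the tumours. Alternatives were cyclic loess, an intensity trend with robust eBayes, a filter at the 25th percentile, the mean of probe sets, other sets of arrays and each array left out. The fits that kept, of the Rb/p53 tumours, only the 2 without a transplant label were chosen after seeing the data. Promoter windows came from RefSeq.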

Additional observations from a re-analysis of the deposited data

Results flagged for a closer look

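Of 32 sets of 4 to 10 arrays, the 8 genes in 4 groups, 2 held a value far from the others, where chance alone gives about 1 in 20. Some sets shared arrays, such as all MMTV-Cre Rb/p53 tumours and the transplants among them. The p53 tumours (n = 3) and the Ad-Cre tumours on their own (n = 2) were too few to be checked. Chil3 read 7.74 in MMTV-Cre replicate 3, against 6.17 in the nearest of the other 4 transplanted MMTV-Cre tumours. Nos2 read 9.03 in MMTV-Cre replicate 2, from the parous mouse, against 8.03 in the nearest of the other 6 MMTV-Cre Rb/p53 tumours.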

How the results depend on the processing

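Under the alternatives, values of the 8 genes changed sign in 7 of 158 cases between Rb/p53 and p53 tumours, 10 of 118 between Ad-Cre and MMTV-Cre tumours, 1 of 94 between transplants and other tumours, and 1 of 174 and 1 of 110 for Rb/p53 and p53 tumours against normal tissue. None of the differences that changed sign was called on all arrays. Against normal tissue they were Mrc1, 0.17 with only the 2 Rb/p53 tumours that were not transplants, and Cd163, 0.14 without p53 replicate 1. Calls were gained in 5 cases between Rb/p53 and p53 tumours. Against normal tissue, where calls are not read as tests, 1 was lost for Rb/p53 tumours (Cd163, with only those 2 tumours). For p53 tumours 10 were lost, 9 of Chil3 and 1 of Mrc1, and 3 gained, of Cd163 without replicate 2 and of Il10, below 6.37 throughout, without replicate 3 or with it moved. Between Rb/p53 and p53 tumours, 1 gene was called over all genes, 2 with cyclic loess, 2 with low genes left out, 356 with all 17 arrays, 2044 with p53 replicate 3 moved, 0 with only the 2 Rb/p53 tumours that were not transplants, and 1 to 1358 with 1 array left out. Of the 8 genes 0 were called, 2 with all 17 arrays, 1 with p53 replicate 3 moved, and 0 to 2 with 1 array left out. Chil3 turned to -0.012 with MMTV-Cre Rb/p53 tumours only and ran from -0.23 to 0.23 with 1 array left out; Il10 turned to 0.073 with cyclic loess and ran from -0.32 to 0.053. With only those 2 tumours against normal tissue, 2005 genes were called in place of 5503, and Arg1 was 1.79, Retnla -4.90, Msr1 3.08 and Nos2 0.63.

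Between Ad-Cre and MMTV-Cre tumours 1 gene was called, 4 with cyclic loess and 1 to 30 with 1 array left out. Against transplanted MMTV-Cre tumours only, Msr1 turned to 0.038 and Nos2 to 0.065. With 1 array left out Arg1 ran from -0.14 to 0.44, Mrc1 from -0.51 to 0.81, Cd163 from -0.56 to 1.27, Msr1 from -0.89 to 0.49, Chil3 from -0.23 to 0.63, Nos2 from -0.54 to 0.33 and Il10 from -0.14 to 0.28; a lone Ad-Cre array was taken to vary like the other groups. Between transplants and other MMTV-Cre tumours 5 genes were called, and 4 to 158 with 1 array left out, while Chil3 ran from -1.94 to 0.13. List counts against normal tissue moved by over 1.5 times in 5 of 40 cases with cyclic loess, among them classical activation in Rb/p53 tumours from 10 to 6. They did so in 25 of 440 with 1 array left out, 12 of 20 with only the 2 tumours that were not transplants, 7 of 40 with only the arrays compared, 6 of 40 with p53 replicate 3 moved, 2 of 40 with low genes left out, 1 of 20 with MMTV-Cre Rb/p53 tumours only, and 0 of 40 each with the intensity trend and with the mean of probe sets. The filter on low genes left no value for Il10 and Chil3. Each cause was not tested. No paired analysis was possible because the labels give no replicate numbers that groups share.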
